A study of Mus musculus with 8 samples.

Results

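The genes described here are the 6 CC chemokine ligands found among the listed genes and the cytokine gene Il1b, 7 genes of 1428 in the deposited table. They were selected on their names (Ccl followed by a number) and by their presence in that table, which lists only genes with an unadjusted p below 0.05 between knockout and wild-type tumours. The difference between the groups therefore chose the members, and it is given below as a description with no independent test. The 6 ligands are Ccl3, Ccl4, Ccl12, Ccl11, Ccl24 and Ccl17.

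RNA was sequenced from mouse colon tumours in 4 libraries labelled miR-29ab1Vilin-KO (KO) and 4 labelled Wildtype (WT), all of strain C57BL/6N. In KO mice the miR-29ab1 microRNA cluster was disrupted conditionally in the intestinal epithelium, so immune and stromal cells of the tumour were not the target of the deletion. Villin, which the label spells Vilin, is an epithelial gene of the gut. Per the series description the tumours were induced with azoxymethane, a carcinogen, and dextran sodium sulfate, which inflames the colon. The ages of the mice, the number of animals behind each library and whether WT mice carried any engineered allele do not appear in the sources used here. The p-values therefore set the difference between groups against the scatter between these libraries. How much of that scatter lies between animals, and how much is technical, is not known.

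CC chemokines are small secreted proteins that draw leukocytes along a gradient by binding G protein-coupled receptors on them. Ccl3 and Ccl4 are made largely by activated macrophages and other leukocytes, and Ccl12 attracts monocytes through Ccr2 in the mouse. Ccl11 and Ccl24 are eotaxins, which bind Ccr3 on eosinophils, and Ccl17 binds Ccr4, a receptor of T helper 2 (Th2) and regulatory T cells. Il1b encodes interleukin-1 beta, which myeloid cells make as an inactive precursor that caspase-1 cuts once an inflammasome such as that of Nlrp3 has formed.

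The microRNAs of the deleted cluster are shown because their disruption in the epithelium is what sets KO apart from WT; the seed, bases 2 to 8, is in capitals. The sequences are those of RefSeq on GRCm38.p6, and miR-29b-3p is also made from a second locus, Mir29b-2, outside the cluster. The level of the cluster itself in these libraries was not analysed here.

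mmu-miR-29a-3p: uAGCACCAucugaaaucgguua
mmu-miR-29b-3p: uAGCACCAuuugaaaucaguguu

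Both carry the same seed, whose match in a transcript reads TGGTGCT. None of the 7 members held this match in its longest annotated 3′ untranslated region (UTR) of GENCODE M21 on GRCm38, against 13.1% of 21020 protein-coding genes that did. The members' 3′ UTRs were short, from 167 bases in Ccl12 to 858 bases in Ccl24, below the median of 961 bases over those genes.

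The promoters of Il1b, Ccl3, Ccl12 and Ccl17 are shown because only these 4 members have an entry in the RefSeq promoter table. They were not chosen by their values. Each runs from 250 bases before to 50 bases after the gene's start on GRCm38.p6, read along the gene. Capitals mark matches on either strand to AP-1 (TGANTCA), STAT6 (TTCNNNNGAA), the PU.1 core (GAGGAA), the TATA box (TATAAA) and the degenerate NF-kB motif.

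Il1b promoter, chr2:129371090-129371389, minus strand: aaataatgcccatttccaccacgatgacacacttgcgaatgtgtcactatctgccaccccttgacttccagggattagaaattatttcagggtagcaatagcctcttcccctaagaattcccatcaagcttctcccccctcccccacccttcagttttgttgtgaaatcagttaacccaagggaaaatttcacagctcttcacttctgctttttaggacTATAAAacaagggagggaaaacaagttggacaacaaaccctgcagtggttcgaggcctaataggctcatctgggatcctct
Ccl3 promoter, chr11:83649329-83649628, minus strand: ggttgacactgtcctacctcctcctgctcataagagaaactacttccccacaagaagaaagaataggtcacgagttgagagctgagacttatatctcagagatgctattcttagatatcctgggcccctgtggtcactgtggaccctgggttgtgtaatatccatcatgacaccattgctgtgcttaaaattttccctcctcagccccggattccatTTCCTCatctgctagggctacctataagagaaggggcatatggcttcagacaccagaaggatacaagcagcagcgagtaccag
Ccl12 promoter, chr11:82101595-82101894, plus strand: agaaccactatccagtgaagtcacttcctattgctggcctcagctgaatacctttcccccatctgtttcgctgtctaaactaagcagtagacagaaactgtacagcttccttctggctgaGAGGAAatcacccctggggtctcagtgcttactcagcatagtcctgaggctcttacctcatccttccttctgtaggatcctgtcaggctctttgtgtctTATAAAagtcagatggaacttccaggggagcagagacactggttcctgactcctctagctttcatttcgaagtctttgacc
Ccl17 promoter, chr8:94810203-94810502, plus strand: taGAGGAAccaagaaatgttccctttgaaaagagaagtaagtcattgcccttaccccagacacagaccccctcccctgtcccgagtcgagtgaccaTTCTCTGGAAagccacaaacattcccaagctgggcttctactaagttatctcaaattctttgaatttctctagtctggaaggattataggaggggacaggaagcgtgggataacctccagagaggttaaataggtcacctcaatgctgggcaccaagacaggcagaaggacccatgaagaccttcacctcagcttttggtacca

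A TATA box stood 31 bases before the start in both Il1b and Ccl12, and 13.6% of 32851 promoters of this length hold one. A PU.1 core stood in Ccl3, Ccl12 and Ccl17, against 28.3% of promoters. The STAT6 motif was found in Ccl17 alone of the 4, 154 bases before the start, and 6.95% of promoters hold it. No match to NF-kB or AP-1 was found in these windows, against 8.46% and 7.81% of promoters. No motif overlapped another within these 4 sequences.

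All 7 members were lower in KO tumours. Il1b averaged 516 ± 311 normalized counts in KO and 1158 ± 112 in WT (SD, n = 4 each), and the 6 ligands summed to 66.2 ± 29.8 in KO and 173.7 ± 32.8 in WT. In bulk tissue, fewer cells of a type and less RNA per cell cannot be told apart. Normalized counts are reads per gene divided by a size factor of the library, and 1 read is worth 0.890 to 1.07 of them. By the authors' deposited table the log2 fold changes of KO over WT ran from -1.01 for Ccl3 to -1.60 for Ccl24, with a median of -1.46. The median was -0.88 over the 599 listed genes that were lower, and the median absolute value was 0.96 over all listed genes. These medians are no measure of an unusual fall, because scarce genes need a larger fold change to be listed. Only 30.4% of listed genes had a mean below that of the most abundant ligand. Of all listed genes 41.9% were lower in KO. Of the 19985 genes behind the authors' adjustment, 3.00% were listed and lower.

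None of the 7 passed an adjusted p of 0.05 by DESeq2 in the authors' deposited table, where their adjusted p-values ran from 0.610 to 0.708. That table calls 2 genes lower at this level, 0.0100% of the genes tested. The unadjusted p-values of the members, below 0.05 by the selection, ran from 0.0117 for Ccl24 to 0.0477 for Ccl12, the member nearest to the limit. CC ligands outside the limit were not analysed here. The recovered reads were fitted again with edgeR's quasi-likelihood test. This is a description only, because the same contrast selected these genes and the fit used listed genes alone. In it 3 of the 7 (Ccl24, Ccl4 and Ccl17) had an unadjusted p below 0.05. Of the 599 listed lower genes, a larger share, 78.0%, had one. An adjusted p below 0.05 was reached by 0 of the 7, the smallest being 0.864. The 3 became 1, Ccl17, without WT replicate 2, 3 or 4.

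The 4 KO values lay wholly below the 4 WT values in Ccl3, Ccl12, Ccl17 and Il1b, 4 of the 7, and in 49.4% of the 599 listed genes that were lower, so that the share among the members was near that background. In Ccl4, Ccl11 and Ccl24 the groups overlapped, each time at WT replicate 1, the lowest WT library of those genes. Without WT replicate 1 all 7 were separated, and without KO replicate 2 the number was 6. Leaving out a library can only keep or raise this number. The matching share of the 599 listed genes was not analysed here, so these counts have no background beside them.

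**Figure D1:**
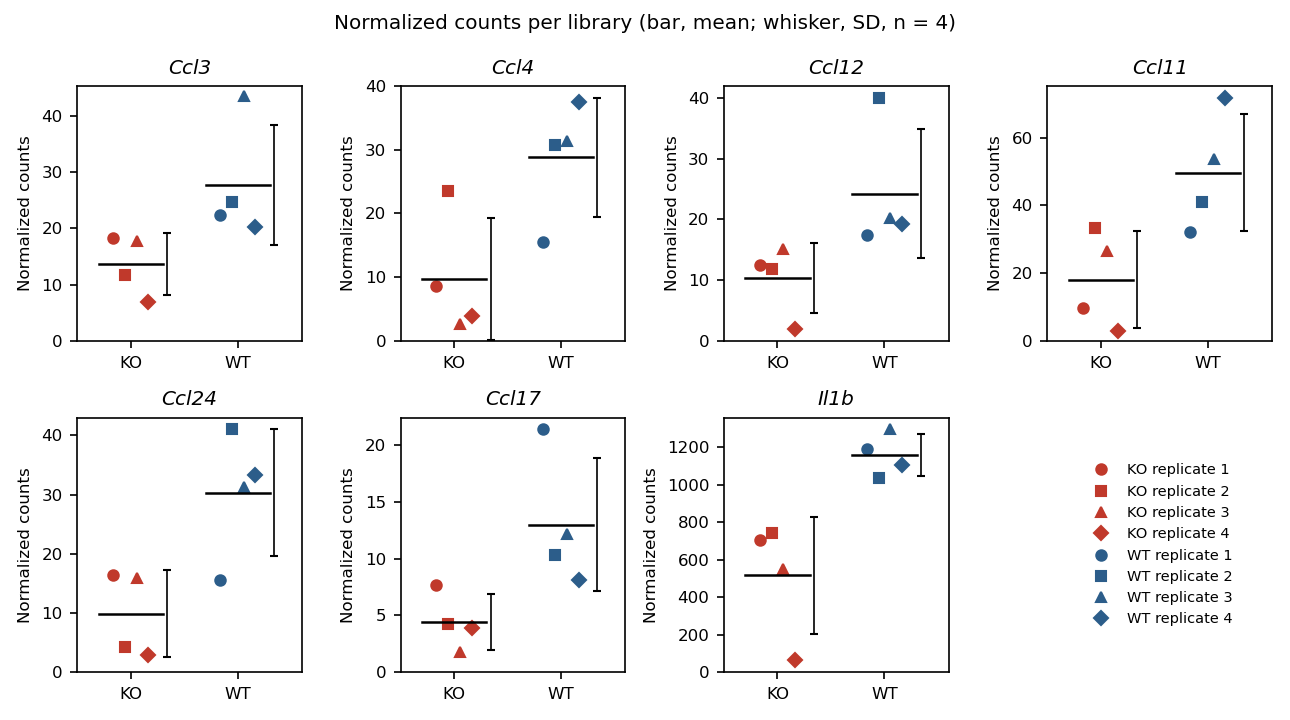
Normalized counts (vertical axes, linear, each from 0) of the 7 members in 4 KO libraries (red, left) and 4 WT libraries (blue, right); horizontal bars are means and whiskers SD. KO replicate 4 is the lowest KO library in 5 of the 7 panels, and Il1b lies between 67.5 and 741.6 in KO against 1038 to 1296 in WT.

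Among the macrophage-type ligands, Ccl3 (macrophage inflammatory protein 1 alpha) had 18.3, 11.8, 17.8 and 6.85 normalized counts in KO replicates 1 to 4, against 22.4, 24.7, 43.5 and 20.2 in WT replicates 1 to 4. No KO library reached a WT library, although KO replicate 3 and WT replicate 4 both held 20 recovered reads and were separated by their size factors alone. Its mean was 13.7 ± 5.44 in KO and 27.7 ± 10.7 in WT (SD, n = 4 each), a ratio of 0.494 and the smallest difference among the members. WT replicate 3 was well above the other 3 WT libraries, and without it the ratio of the means was 0.610.

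Ccl4 (macrophage inflammatory protein 1 beta) had 8.68, 23.6, 2.67 and 3.91 normalized counts in KO replicates 1 to 4, against 15.6, 30.8, 31.3 and 37.4 in WT replicates 1 to 4. KO replicate 2 lay above WT replicate 1, and the other 3 KO libraries held 3 to 9 reads each. The KO mean of 9.71 ± 9.60 was 0.337 times the WT mean of 28.8 ± 9.31 (SD, n = 4 each), and 0.177 times it without KO replicate 2. Ccl3 and Ccl4 are neighbours on chromosome 11 in the coordinates of the table, whose build is uncertain (87598549 to 87600060 on the minus strand and 87613288 to 87615387 on the plus strand), 13.2 kb apart. Their profiles over the 8 libraries differed by a root mean square of 1.01 on the log2 scale, a larger difference than in 16 of the 21 pairs of members.

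The monocyte ligand Ccl12 (monocyte chemotactic protein 5), which the naming rule finds beside the other 5, had 12.5, 11.8, 15.1 and 1.96 normalized counts in KO replicates 1 to 4, against 17.5, 40.1, 20.2 and 19.2 in WT replicates 1 to 4. The groups did not overlap, and both means were set in part by 1 library, KO replicate 4 at 2 reads and WT replicate 2 at 39 reads. The mean was 10.4 ± 5.78 in KO and 24.3 ± 10.6 in WT (SD, n = 4 each), a ratio of 0.427. The ratio was 0.542 without KO replicate 4 and 0.545 without WT replicate 2.

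Of the eotaxins, Ccl11 had 9.64, 33.2, 26.7 and 2.94 normalized counts in KO replicates 1 to 4, against 32.1, 41.1, 53.6 and 71.8 in WT replicates 1 to 4. KO replicate 2 lay just above WT replicate 1, and KO replicates 1 and 4 were far below every WT library. The KO mean of 18.1 ± 14.2 was 0.365 times the WT mean of 49.7 ± 17.2 (SD, n = 4 each). In the coordinates of the table Ccl11 (85800043 to 85807786) and Ccl12 (85848941 to 85850496) lie 41.2 kb apart on the plus strand of chromosome 11, and their profiles differed by a root mean square of 0.69 on the log2 scale.

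Ccl24, the other eotaxin, had 16.4, 4.29, 16.02 and 2.94 normalized counts in KO replicates 1 to 4, against 15.6, 41.1, 31.3 and 33.4 in WT replicates 1 to 4. WT replicate 1 lay below 2 KO libraries, and the other 3 WT libraries lay above all KO libraries. The KO mean of 9.91 ± 7.29 was 0.326 times the WT mean of 30.3 ± 10.7 (SD, n = 4 each), the lowest ratio of the 7 members. The KO libraries that were low differed between the eotaxins: KO replicate 2 had the most Ccl11 of the KO libraries but 4 reads of Ccl24, and KO replicate 1 had the most Ccl24 but 10 reads of Ccl11.

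The Th2-type ligand Ccl17 was the scarcest member, at 7.71, 4.29, 1.78 and 3.91 normalized counts in KO replicates 1 to 4, against 21.4, 10.3, 12.1 and 8.09 in WT replicates 1 to 4. The groups did not overlap in normalized counts, but KO replicate 1 and WT replicate 4 both held 8 reads, so that the size factors again set their order. The mean was 4.42 ± 2.46 in KO and 13.0 ± 5.85 in WT (SD, n = 4 each), a ratio of 0.341, and it was 0.435 without WT replicate 1. It was lowest in KO replicate 3, at 2 reads, whose exact Poisson 95% interval of 0.242 to 7.22 reads covers counting error only. KO replicate 4 was not the lowest here, and the ratio without it was 0.354.

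Il1b was the most abundant member, with 706.7, 741.6, 549.9 and 67.5 normalized counts in KO replicates 1 to 4, against 1192, 1038, 1296 and 1105 in WT replicates 1 to 4. The groups did not overlap, and KO replicate 4, at 69 reads or 0.0583 of the WT mean, was far below the other 3 KO libraries. The ratio of the means was 0.446 with all libraries and 0.575 without KO replicate 4, where the other 3 KO libraries averaged 666 normalized counts. In the coordinates of the table Il1b lies on chromosome 2 from 136904604 to 136911167 on the minus strand, Ccl24 on chromosome 5 from 145345722 to 145348832 on the minus strand, and Ccl17 on chromosome 8 from 99748076 to 99749658 on the plus strand. All 7 members are annotated there as protein-coding genes.

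Per kilobase of gene length, the level in KO tumours was 270.8 ± 162.9 normalized counts for Il1b, from 14.7 ± 14.5 to 19.3 ± 10.8 for Ccl4, Ccl11, Ccl3 and Ccl12, and 8.62 ± 4.79 for Ccl17 and 7.65 ± 5.63 for Ccl24 (SD, n = 4). In WT tumours the level per kilobase was 607.0 ± 58.7 for Il1b and 45.9 ± 15.9 for Ccl11, 45.2 ± 19.7 for Ccl12, 43.6 ± 14.1 for Ccl4 and 36.1 ± 13.9 for Ccl3. It was 25.3 ± 11.4 for Ccl17 and 23.4 ± 8.27 for Ccl24 in WT. Within each group, neighbours in this order among the ligands differed by less than the larger of their SDs, and Il1b stood apart from them all in both groups. The ligands were scarce, with 18 reads of Ccl17 to 74 of Ccl11 summed over the 4 KO libraries and 52 of Ccl17 to 197 of Ccl11 over the 4 WT libraries, against 2112 in KO and 4609 in WT for Il1b.

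The spread of the reads within a group, as chi-square per degree of freedom with counting noise at 1, was above 1 in every member. It was 1.48 for Ccl17, 2.22 for Ccl3 and 3.33 for Ccl12 in KO, and 5.37 for Ccl24, 9.74 for Ccl4, 11.2 for Ccl11 and 189.7 for Il1b. In WT it ran from 2.66 for Ccl17 to 10.7 for Il1b. With 4 libraries, low values such as 1.48 for Ccl17 and 2.22 for Ccl3 in KO can arise from counting noise alone. Standard errors of the log2 fold change in a DESeq2 refit of the reads were 0.48 for Ccl3, 0.58 for Il1b, 0.61 for Ccl12, 0.64 for Ccl24, 0.66 for Ccl11, 0.67 for Ccl17 and 0.70 for Ccl4.

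**Figure D2:**
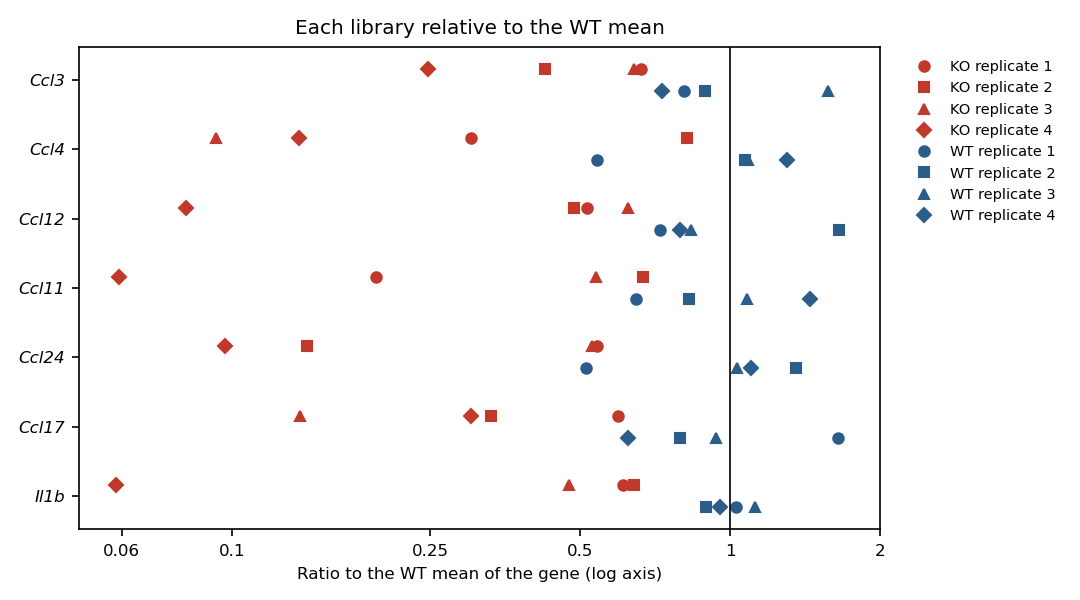
Normalized counts of each library divided by the WT mean of the gene (horizontal log axis) for the 7 members (rows), with KO libraries in red above WT libraries in blue and 1 symbol per replicate number. KO replicate 4 lies between 0.058 and 0.302 of the WT mean, and every other KO value lies below 1.

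Library by library, the 7 ratios to the WT mean had a median of 0.540, 0.486, 0.528 and 0.097 in KO replicates 1 to 4, against 0.722, 0.896, 1.08 and 0.954 in WT replicates 1 to 4. KO replicates 1 to 3 were thus alike in their median while KO replicate 4 was far below them, and WT replicate 1 was the lowest WT library. KO replicate 4 was the lowest KO library in 5 of the 7 members, all but Ccl4 and Ccl17, and in 355 of the 599 listed genes that were lower (59.3%). In the same library the listed B cell markers, 12 of 13, summed to 3475 normalized counts, against 194 to 971 in the other KO libraries and 98.6 to 287 in WT. Those with the smallest p were Bank1, Cd22, Cd79a and Pax5, which were higher in KO, and of these Bank1 passed an adjusted p of 0.05 by DESeq2 in the authors' deposited table (0.0437). The part of this in the low values of the members was not tested.

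Macrophage-type and eosinophil- or Th2-type ligands were both lower in KO tumours. The median log2 ratio of the KO mean to the WT mean was -1.29 over Ccl3 and Ccl4, at -1.02 and -1.57, and -1.55 over Ccl11, Ccl17 and Ccl24, from -1.45 to -1.62. The summed macrophage-type ligands stood at 27.0, 35.4, 20.5 and 10.8 normalized counts in KO replicates 1 to 4, against 37.9, 55.5, 74.8 and 57.7 in WT replicates 1 to 4. The summed eosinophil- and Th2-type ligands stood at 33.7, 41.8, 44.5 and 9.78 in KO, against 69.1, 92.5, 97.1 and 113.3 in WT. Both sums were lower in every KO library than in every WT library, though Ccl4, Ccl11 and Ccl24 singly overlapped. All these genes were selected on the same contrast, so the separation of their sums is no independent result. The macrophage-type sum over the other within a library was 0.800, 0.846, 0.460 and 1.10 in KO replicates 1 to 4. In WT replicates 1 to 4 this quotient was 0.549, 0.600, 0.771 and 0.509. It averaged 0.802 ± 0.263 in KO and 0.607 ± 0.115 in WT (SD, n = 4 each). KO replicate 3 lay below every WT library, and the other KO libraries lay above every WT library. The sums rest on few reads of genes selected on this contrast, so they cannot show whether the classes shifted against each other.

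**Figure D3:**
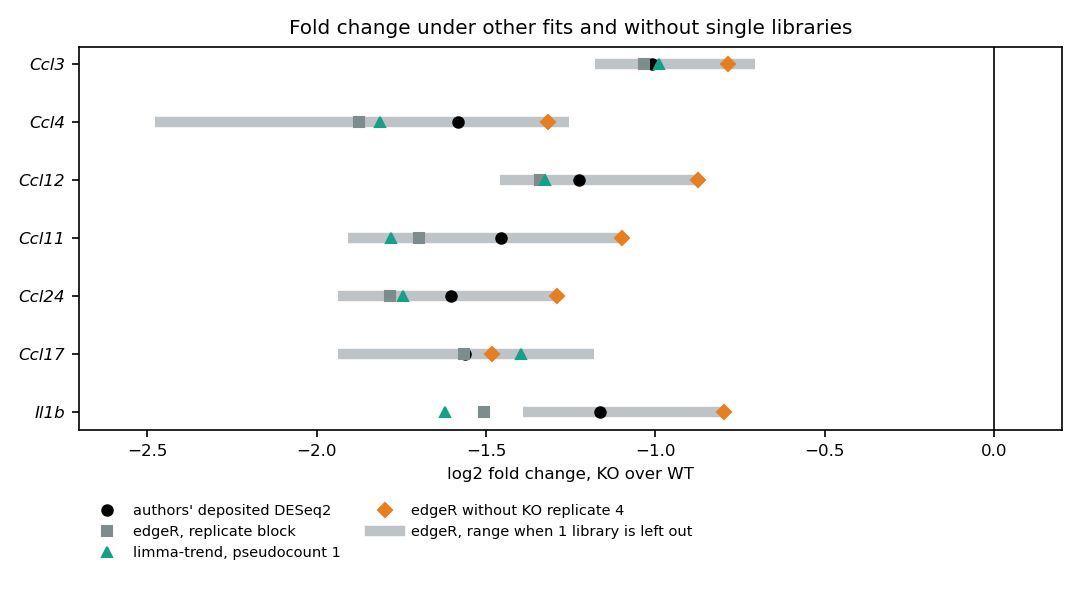
log2 fold change of KO over WT (horizontal axis) of the 7 members (rows) in the authors' deposited table and in refits of the recovered reads; grey bars span edgeR refits with 1 of the 8 libraries left out. All values lie below 0, with Ccl3 nearest to 0 at -0.70 and Ccl4 farthest at -2.48.

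Copies of the pentamer ATTTA, the core of AU-rich elements that mark many cytokine transcripts for rapid decay, were counted in the longest 3′ UTR of each member. There were 5 in Ccl3, Ccl11 and Ccl12, 4 in Il1b, 2 in Ccl4 and none in Ccl17 and Ccl24. Per kilobase this was 29.9 in Ccl12, 12.2 in Ccl3, 8.71 in Il1b, 7.76 in Ccl11 and 6.62 in Ccl4, against a median of 1.28 over 20657 genes with a 3′ UTR of at least 50 bases. The density of Ccl12 was reached by 0.0436% of these genes and that of Ccl4 by 3.78%. Whether the copies bear on the difference between KO and WT tumours was not tested.

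Other genes of the chemokine and interleukin-1 systems were taken from lists of their symbols. Of all genes tested 7.15% were listed. Of 24 CC ligands, 6 were listed, all lower, and 18 were not. None of 15 CC receptors was listed, so receptors such as Ccr2, Ccr3 and Ccr4 have no values here. Of 25 CXC, CX3C and XC ligands and receptors, 3 were listed, all higher. None passed an adjusted p of 0.05 by DESeq2 in the authors' deposited table, Cx3cl1 being nearest at 0.0507. Cx3cl1, a membrane-bound chemokine, averaged 1689 ± 352 normalized counts over the 4 KO libraries and 862 ± 154 over the 4 WT libraries (SD). The B cell attractant Cxcl13 had 29.9, 160.7, 55.2 and 300.4 in KO replicates 1 to 4, against 41.8, 68.8, 69.8 and 28.3 in WT, and its receptor gene Cxcr5 reached 126.2 in KO replicate 4. The CC ligands had their lowest sum, 22.5, in KO replicate 4, the library in which Cxcl13 and Cxcr5 were highest. KO replicate 2, with the next highest Cxcl13 and Cxcr5, had the highest CC ligand sum of the KO libraries, 88.9.

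Of 31 interleukin-1 family and inflammasome genes, 2 were listed, a share near the 7.15% of all genes tested. They are Il1b itself and Nlrp3, the sensor of the inflammasome that activates caspase-1. Nlrp3 had 67.5, 57.9, 52.5 and 8.81 normalized counts in KO replicates 1 to 4, against 80.7, 112.0, 122.4 and 120.4 in WT replicates 1 to 4. The groups did not overlap, and the lowest KO value was that of KO replicate 4, as in Il1b and in 59.3% of the listed lower genes. Without KO replicate 4 the ratio of the means was 0.545 for Nlrp3 and 0.575 for Il1b. The ratios of the members without that library ran from 0.354 for Ccl17 to 0.577 for Ccl3, with Ccl12 at 0.542, so this level was not particular to Nlrp3 and Il1b. None of 23 NF-kB response genes and none of 19 type 2 response genes was listed, against 7.15% of all genes tested. Neither of these lists contains Nlrp3 or any of the members, which are all listed, so those genes could not be counted in them. Whether NF-kB or type 2 responses had a part in the lower members was not tested.

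Markers of cells that could make or receive these ligands were counted next, and 7.15% of all genes tested were listed. Of 18 macrophage markers Msr1, a scavenger receptor, was the one listed, with 137.9, 106.1, 186.9 and 83.2 normalized counts in KO replicates 1 to 4, against 191.6, 287.7, 231.6 and 210.4 in WT. Of 19 neutrophil and monocyte markers 2 were listed, both lower. Acod1, an enzyme of activated myeloid cells, averaged 106.8 ± 46.0 in KO and 199.8 ± 94.2 in WT (SD, n = 4 each). Mpo, the myeloperoxidase of neutrophils, had no reads in KO, against 2.92 and 23.3 normalized counts in WT replicates 1 and 4 and none in WT replicates 2 and 3. Of 12 dendritic cell markers Fscn1, an actin-bundling gene, was listed. It averaged 428 ± 233 over the KO libraries and 857 ± 364 over the WT libraries (SD, n = 4 each). The part of these cell types in the lower ligands was not tested.

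Of 11 eosinophil markers Alox15, a lipoxygenase that macrophages and epithelium also make, was the one listed, from 240.7 to 2044 normalized counts in KO and from 776.6 to 3977 in WT. The defining eosinophil genes Siglecf, Epx and Prg2 were not listed, and their levels were not analysed here. Of 14 mast cell and basophil markers 2 were listed, both lower. Mcpt1, a mast cell protease, ranged from 11.7 to 401 in KO and from 64.7 to 2032 in WT. Tpsb2, a mast cell tryptase, had 48.2, 46.1, 29.4 and 0 in KO replicates 1 to 4, against 130.3, 159.2, 21.2 and 182.1 in WT. Of 15 fibroblast markers 2 were listed, Dpt and Mfap5, both higher, summing to 130 to 201 in KO and 65.8 to 129 in WT. The part of these cell types in the ligand levels was not tested. None of 14 epithelial and colon markers was listed, so the labelled tissue could not be checked against them. Of 14 T cell markers 3 were listed (Cd4, Trbc1 and Cd8b1), all higher, summing to 127 to 159 in KO and 59.3 to 78.1 in WT.

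**Figure D4:**
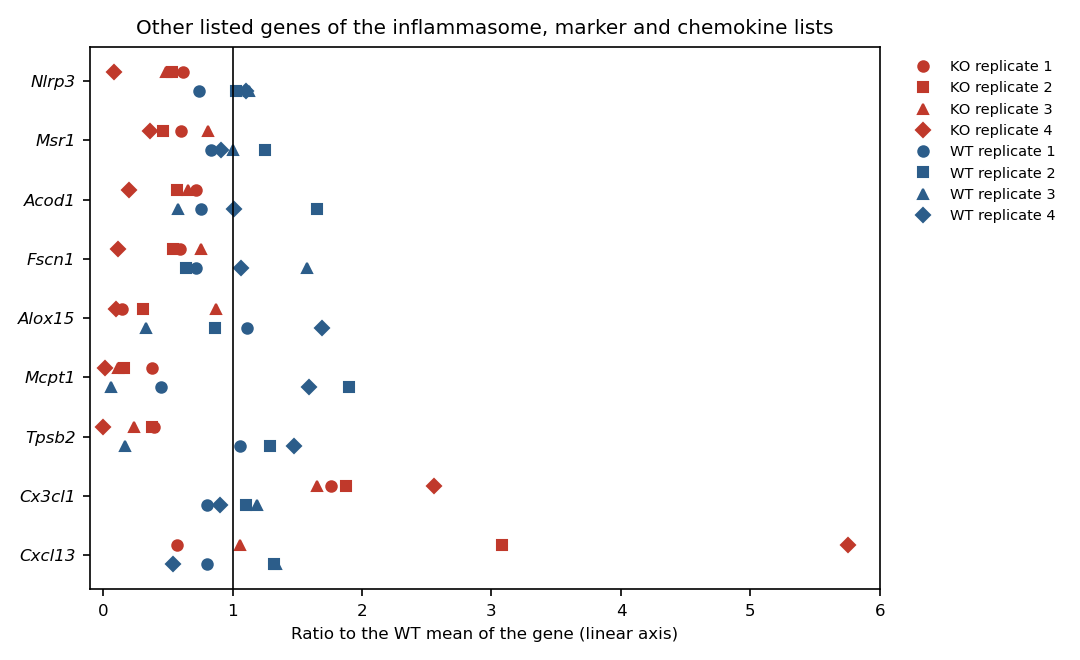
Normalized counts of each library divided by the WT mean of the gene (horizontal linear axis) for 9 other listed genes (rows), with KO libraries in red above WT libraries in blue. Nlrp3 and Msr1 are separated between the groups with KO lower, Cx3cl1 with KO higher, and the other 6 overlap.

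The genes with the most similar profiles over the 8 libraries were found by the root mean square difference of log2 normalized counts plus 1, each centred on its own mean, among 1191 listed genes (1192 for Ccl17) with a mean of at least 10. Nlrp3 was the nearest to Il1b, at 0.30, followed by Fhl3, a LIM domain protein, at 0.34. The potassium channel gene Kcnh2 (0.23) and the glutathione transferase gene Gstm7 (0.30) were nearest to Ccl3, and 9430076C15Rik (0.21) was nearest to Ccl12. Ccl24 was nearest to Btnl9, a butyrophilin-like gene, and Clec5a, a myeloid C-type lectin, both at 0.50. The dynein chain gene Dync1i1 was nearest to Ccl4, at 0.54, and Gm17322 stood at 0.36 from Ccl11 and Gm6377 at 0.34 from Ccl17. Among the members themselves the nearest pair was Ccl12 and Il1b, at 0.56, and the farthest Ccl11 and Ccl17, at 1.27. These distances include the difference between the groups, on which all listed genes were selected.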

How the data were processed

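Per the labels' protocols, TRIzol was used to isolate total RNA from colon tumours, and a directional kit made the libraries. HISAT2 and DESeq2 and the build GRCh38 are named in the submitters' processing notes; GRCh38 is a human build, while the gene identifiers are of mouse strain C57BL/6NJ, so coordinates are printed as the table has them. The sources used here name neither the read counter nor the depth of a library. Per the file headers, the authors' deposited table holds a normalized signal (counts divided by a size factor) per library, group means, a log2 fold change, p-values and adjusted p-values, and gene lengths, for 1428 genes. No unadjusted p in it exceeds 0.05.

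Whole reads were recovered from the deposited signal: 100% of values in each library fell within 0.001 of a whole number. They sum to between 1202677 and 2180787 reads per library over the listed genes. The authors' adjusted p-values, set against their raw ones, imply 19985 genes in the adjustment. Reads were refitted with edgeR 4.0.16 and DESeq2 1.42.0, and log2 values with limma 3.58.1, in R 4.3.3. Benjamini-Hochberg adjustment was over 19985 genes. The fits were also run on simulated counts with a single spread for all genes and with increases only. That setting differs from the members, which were lower and varied in spread. These are refits of selected genes and no independent test.

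Groups and replicate numbers come from the sample titles. The members, gene lists and tests were chosen with earlier results of these data known. Named genes are the 7 members, up to 4 listed genes of each list by smallest p, and the 2 listed genes nearest to each member in profile, of which those without a symbol are not named. Sequences are from RefSeq (GRCm38.p6) and GENCODE M21. Ccl12 fits the naming rule but is absent from the series entry's list of 6; it was kept.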

Additional observations from a re-analysis of the deposited data

Results flagged for a closer look

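Ccl12 in WT replicate 2 stood apart from the other 3 WT libraries, at 40.1 normalized counts against 17.5 to 20.2. The gap to the next library was 0.880 of the range of the group, above Dixon's 95% critical value for 4 values. It was the 1 such value in 14 groups examined, and chance gives about 1 in 20 groups.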

How the results depend on the processing

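The log2 fold changes of the 7 members were negative in the edgeR, DESeq2 and limma-trend refits, with a replicate block and in each refit without 1 library. None moved by more than the SD between libraries of a group. The count of members below an unadjusted p of 0.05 depended on the tool. It was 3 with edgeR, 7 with DESeq2 and 5 with limma-trend at a pseudocount of 1 or 0.1, the second pseudocount being added after the data were seen. The 7 with DESeq2 repeats the selection, because the authors' DESeq2 p chose the members. The share among listed lower genes was taken for the main edgeR fit alone, at 78.0%. With TMM factors over the listed genes, which shift the median log2 fold change of all listed genes by -0.16, the count was 6. Leaving out 1 library it ran from 1 to 3, and a filter at a mean of 10 left 2. The smallest adjusted p of any member in these refits was 0.472, with DESeq2. The count of separated members ran from 4 to 7 when 1 library was left out, the 7 being without WT replicate 1, and it was 6 with TMM factors. For these settings the share among listed lower genes was not analysed here, and leaving out a library cannot lower the count. No label pairs the libraries that carry the same number, and their deviations correlated by -0.29 to 0.098 over the listed genes; with the replicate block, 2 members (Ccl4 and Ccl17) were below an unadjusted p of 0.05 and the log2 fold change of Il1b was -1.51. Adding Ccl12 to the macrophage-type ligands, a choice made after the data were seen, gave a median log2 ratio of -1.23. At 2 to 4 reads, as in 9 of the 28 KO values, counting error alone spans several-fold.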
